A study of Mus musculus with 32 samples.

Results

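Proteasome and ubiquitin conjugation genes were chosen by name. Every probe named for a Psma, Psmb, Psmc, Psmd, Psme or Ube2 gene, or for a Usp gene with a number, was taken. They were 87 genes on 127 probes, out of 9030 named genes on 12771 probes, among 20794 probes in all. The core class (Psma and Psmb) held 17 genes, the regulatory class (Psmc, Psmd and Psme) 22, the conjugating class (Ube2) 20 and the deubiquitinating class (Usp) 28. Among the regulatory genes, Psmc3ip and Psme3ip1 match by name and encode interacting proteins, not subunits. For Ube2l6, Usp14 and Ube2m, 3 further genes of the system, no probe so named was analysed here.

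The samples were eye, brain and heart RNA of sighted C3H male mice, a line that the design text calls the seh mutant. Each array set 1 sighted sample against a pool of RNA from 6 C3H.pde6b- control males of the same organ, in 2 colours. Both lines are C3H, and the control line is named for pde6b, the rod phosphodiesterase gene behind the inherited retinal degeneration of C3H mice. Ages were not used here. There were 12 eye, 12 brain and 8 heart arrays. The same control mice gave the brain pool and the heart pool, and other mice gave the eye pool. A replicate here is the mean of consecutive arrays with opposite dyes, so that eye and brain had 6 replicates and heart had 4. Its value is the log2 ratio of sighted over control RNA, so a positive value means higher in sighted mice.

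The direction of that ratio is likely, not stated, because it was inferred from rod genes in eye, which therefore support no direction here. Which arrays belong to 1 animal is not labelled, so p-values measure only the spread between these samples, and part of it may be technical. The control of an organ is 1 pool, so the spread between control animals is left out. Array medians as deposited lay between -0.061 and 0.535 in eye, 0.002 and 0.1 in brain and 0.034 and 0.217 in heart. Missing values, repeated top values included, made up 1.96 to 5.96% of an eye array, 1.21 to 6.10% of a brain array and 6.75 to 61.6% of a heart array.

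The 26S proteasome degrades proteins tagged with ubiquitin. Its barrel, the 20S core, is built from rings of alpha and beta subunits, and 3 of the beta subunits cut the protein chain. Interferon-treated cells and immune cells replace those cutting subunits with inducible ones, which form the immunoproteasome and change the peptides offered to T cells. The core is opened by a 19S cap, whose ATPases unfold the substrate, or by other activators such as PA28. Ubiquitin is attached by a cascade in which Ube2 enzymes hand it on, and Usp enzymes take it off. Photoreceptors renew much of their protein daily, and rod degeneration is known to bring activated microglia into the retina.

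In eye, the inducible part of the proteasome was lower in sighted mice while the constitutive part lay near 0. All 3 inducible beta subunits, Psmb8, Psmb9 and Psmb10, and both PA28 genes with them, Psme1 and Psme2, fell. Each of these genes had 1 probe, as had 62 of the 87 members. Of the other members called, Psmc6, Psmd9, Psme3, Usp2, Usp19 and Usp21 also had 1 probe each. None of the 14 other core genes was called. Of the 82 members tested in eye, 14 were called, 8 higher and 6 lower, with limma and a Benjamini-Hochberg adjusted p under 0.05 over all genes. Of all 15874 genes tested, 26.8% were called, 15.9% higher and 11% lower, so the members were not called more often than other genes. At an unadjusted p under 0.05 there were 24 members, and 37.9% of all genes. The median over members tested was 0.035 and over all genes 0.027, and 79.3% of the members lay within 0.25 of 0, against 68.5% of all genes. Whole eyes were used, and fewer cells of a type and less RNA per cell cannot be told apart in such samples.

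**Figure D1:**
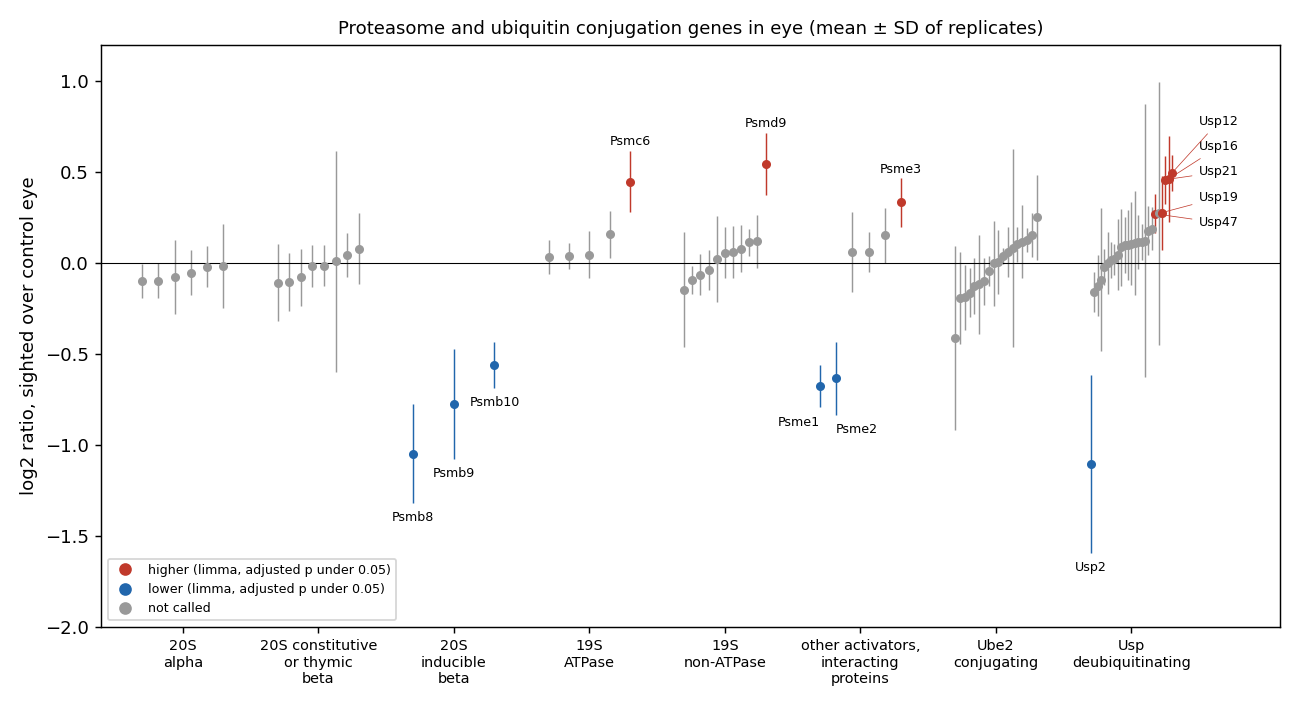
Mean log2 ratio of sighted over control eye for the 82 members tested, by class (vertical axis), with bars of 1 SD over the replicates. Red and blue points were called higher and lower with limma, and grey points were not called. The inducible beta subunits, Psme1, Psme2 and Usp2 stand below the rest, and the alpha and constitutive beta subunits lie close to 0.

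Psmb8 encodes the inducible subunit with chymotrypsin-like activity. Its log2 ratio in eye was -1.54 in the lowest replicate, -0.998 at the median and -0.77 in the highest. Every replicate was below 0, and so was each of the 12 eye arrays. The mean was -1.05 ± 0.27 (SD, n = 6), a level 2.07-fold lower in sighted eyes, with a limma adjusted p of 0.000186. Psmb9, the inducible counterpart of the caspase-like subunit, ran from -1.16 through a median of -0.71 to -0.41. Its mean was -0.78 ± 0.30 (SD, n = 6, limma adjusted p = 0.00122). Psmb10, the inducible counterpart of the trypsin-like subunit, lay between -0.69 and -0.38 with a median of -0.58. The replicates were close together, at -0.56 ± 0.13 (SD, n = 6, limma adjusted p = 0.000469).

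Their constitutive counterparts showed no such difference. Psmb5, the chymotrypsin-like subunit that Psmb8 replaces, had -0.13 as lowest, -0.03 as median and 0.12 as highest replicate, and a mean of -0.02 ± 0.11 (SD, n = 6). Its 95% interval ran from -0.16 to 0.13. Psmb6, which Psmb9 replaces, averaged 0.08 ± 0.19 (95% interval -0.11 to 0.26), and Psmb7, which Psmb10 replaces, -0.02 ± 0.11 (-0.16 to 0.13, n = 6 each). The replicates of both lay on both sides of 0. No interval of these 3 genes reached the size of the change in its inducible partner. The 6 alpha subunits, which form the outer rings, had means between -0.10 and -0.02, and none was called. The 7 constitutive beta subunits lay between -0.11 and 0.08. Psmb11, the beta subunit of the thymus, was uneven, with replicates from -1.20 to 0.43 and a mean of 0.01 ± 0.61.

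Psme1 and Psme2 encode the alpha and beta chains of PA28, the ring-shaped activator that interferon induces. Psme1 lay between -0.80 and -0.50, with a median of -0.71 and a mean of -0.68 ± 0.12 (SD, n = 6, limma adjusted p = 0.000158). Psme2 lay between -1.01 and -0.46, with a median of -0.60 and a mean of -0.63 ± 0.20 (SD, n = 6, limma adjusted p = 0.000818). Both were below 0 in every replicate. Psme3, the gamma chain, which forms a nuclear activator of its own and is not induced by interferon, went the other way. Its replicates ran from 0.15 to 0.51, with a mean of 0.33 ± 0.13 (SD, n = 6, limma adjusted p = 0.00674). Psme4, the activator PA200, averaged 0.06 ± 0.22 and was not called.

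**Figure D2:**
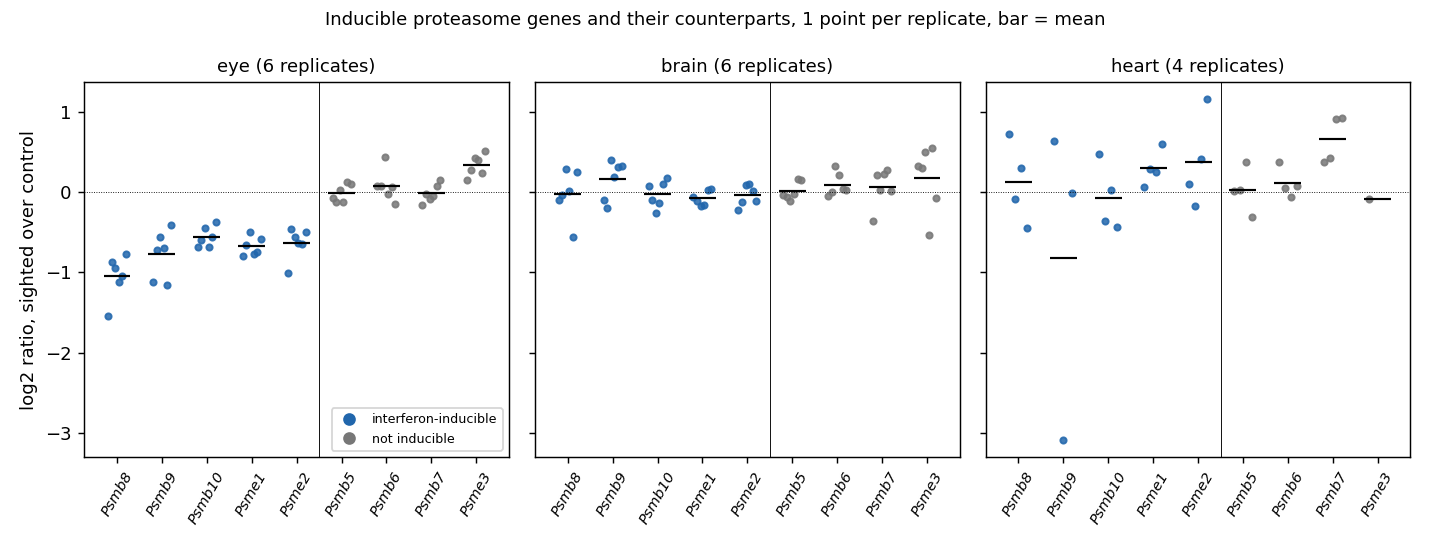
Log2 ratio of sighted over control RNA (vertical axis) in each replicate of eye, brain and heart for 5 inducible proteasome genes (blue) and 4 that are not (grey). Bars are means. In eye the blue points all lie below 0, between -1.54 and -0.38, while in brain they lie on both sides of 0. Psmb9 had 1 heart replicate at -3.09.

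Of the 5 inducible genes, 4 lie in 2 pairs on the mouse map, and Psmb10 lies apart on chromosome 8. In the RefSeq gene order of GRCm38.p6, Psmb9, Tap1, Psmb8 and Tap2 follow each other on chromosome 17, with H2-DMb1 and H2-Ob on either side. Psme1, Emc9 and Psme2 follow each other on chromosome 14, with Rnf31 and Irf9 next. Since Psmb8, Psmb9 and Psmb10 moved together, the 250 bases before their RefSeq starts are shown with those of Psmb5, which did not move. Capitals mark the letters TTCNNNGAA (the GAS core, bound by STAT factors) and TGACNNNGC (the core of the antioxidant element bound by Nrf factors), which were searched on both strands. The core of the interferon-stimulated element (ISRE) was searched too and is in none of the 4 windows. The build is GRCm38.p6 from RefSeq, and each run reads 5′ to 3′ toward the start of the gene.
Psmb8 (chr17:34197945-34198194, plus strand): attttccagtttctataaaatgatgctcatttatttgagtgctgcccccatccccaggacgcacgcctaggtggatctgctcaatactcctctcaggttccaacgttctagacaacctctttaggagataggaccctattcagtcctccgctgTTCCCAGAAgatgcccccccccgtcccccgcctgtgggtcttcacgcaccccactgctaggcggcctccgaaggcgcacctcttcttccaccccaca
Psmb9 (chr17:34187331-34187580, minus strand): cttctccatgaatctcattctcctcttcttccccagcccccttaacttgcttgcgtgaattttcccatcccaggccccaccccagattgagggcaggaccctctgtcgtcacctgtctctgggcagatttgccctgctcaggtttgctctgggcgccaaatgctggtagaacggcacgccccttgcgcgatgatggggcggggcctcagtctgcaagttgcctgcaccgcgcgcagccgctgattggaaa
Psmb10 (chr8:105938393-105938642, minus strand): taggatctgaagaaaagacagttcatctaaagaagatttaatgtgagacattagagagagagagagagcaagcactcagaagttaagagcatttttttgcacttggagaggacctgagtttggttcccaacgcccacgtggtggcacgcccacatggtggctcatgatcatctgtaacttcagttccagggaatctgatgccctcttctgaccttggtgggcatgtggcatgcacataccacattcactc
Psmb5 (chr14:54617996-54618245, minus strand): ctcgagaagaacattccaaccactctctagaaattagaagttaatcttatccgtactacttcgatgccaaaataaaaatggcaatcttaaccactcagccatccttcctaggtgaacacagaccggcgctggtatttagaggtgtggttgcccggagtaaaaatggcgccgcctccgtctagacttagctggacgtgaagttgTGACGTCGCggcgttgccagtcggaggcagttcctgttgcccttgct

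Psmb8 held a GAS core, TTCCCAGAA, 97 bases before its start, and no such letters are in the windows of Psmb9, Psmb10, Psme1 or Psme2. Psmb5 held an antioxidant core 47 bases before its start. Of 72 members with a window, 5 held a GAS core, 3 an interferon element core, 10 an antioxidant core and 9 the E-box CACGTG. Among all 32841 windows the shares were 7.02, 2.98, 10.2 and 6.02%. The counts of members are per gene and the shares are per window, and some genes have several windows. The E-box, which is not marked in capitals, was in 3 of the 8 genes called higher and in 1 of the 6 called lower, Psmb10. These are matches of letters in a short window, not sites.

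Genes that work beside the immunoproteasome were lower in the same eyes. Of 12 antigen processing and interferon response genes tested, 8 fell, 0 rose and the median was -0.70. Of all genes in eye, 11% were called lower and 15.9% higher. H2-K1, a class I chain that presents peptides, was at -1.01 ± 0.18 (SD, n = 6). B2m, its light chain, was at -0.68 ± 0.20. Irf1, the factor that drives immunoproteasome genes, was at -0.67 ± 0.50, with replicates between -1.51 and -0.01. Irf7 was at -0.97 ± 0.31, Irf9 at -0.43 ± 0.22, Igtp at -0.90 ± 0.31 and Ifi35 at -0.73 ± 0.12. Tapbp, which loads peptides onto class I chains, was at -0.03 ± 0.25 and was not called. The probe named for Tap1, the peptide transporter next to Psmb9, was the lowest of the list at -1.97 ± 1.01, and it is 1 of the 8. Its replicates followed those of the haemoglobin gene Hba-a1 with a root mean square difference of 0.117, while the closest member, Usp2, stood 1.23 away. The value may therefore not be that of Tap1, which was not tested.

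Markers of other cells also differed in these eyes. Of all genes in eye, 11% were called lower and 15.9% higher. Of 14 immune and microglia genes tested, 9 fell and 0 rose, with replicate medians between -0.65 and -0.25. The microglial genes Ctss and Aif1 were at -0.89 ± 0.15 and -0.60 ± 0.20, while Ptprc, carried by all leukocytes, was at -0.09 ± 0.20. All 8 surface epithelium genes and all 3 red cell genes fell. Of 10 skeletal muscle genes 9 fell and 1 rose, at 0.45. Of 9 lens genes 8 rose and 1 fell, at -0.55. All 4 rod genes tested rose, with a median of 5.23, but the direction of the ratio was itself inferred from rod genes. The part of these cells in the values of the members was not tested, and ratios give no level at which a marker could be called absent.

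Among the 19S genes, most members lay close to 0 and 2 of 16 were called, both higher. Of all genes in eye, 26.8% were called, 15.9% of them all as higher. Psmc6 encodes one of the ATPases of the base. Its replicates lay between 0.22 and 0.66 with a median of 0.43, and its mean was 0.45 ± 0.17 (SD, n = 6, limma adjusted p = 0.00284). The 4 other ATPases measured, Psmc2, Psmc3, Psmc4 and Psmc5, lay between 0.03 and 0.16 and were not called. Psmd9, a chaperone that helps assemble the base, lay between 0.36 and 0.84 with a median of 0.50, at 0.54 ± 0.17 (SD, n = 6, limma adjusted p = 0.0011). Both were above 0 in all replicates. The 10 other non-ATPase genes lay between -0.15 and 0.12, Psmd11 lowest and Psmd5 highest. The assembly and regulation genes outside the members gave a similar picture, with 1 of 8 called. That gene was Psmg2, a chaperone of 20S assembly, at 0.35 ± 0.11. Pomp, which matures the core, was at -0.11 ± 0.10, and Nfe2l1, the factor that drives proteasome subunits, at 0.01 ± 0.26.

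While 26.8% of all genes were called in eye, no conjugating enzyme was called as the mean of its probes. The 18 tested had a median of 0.002 and lay between -0.41 for Ube2r2, which serves cullin ligases, and 0.25 for Ube2d2a, a general conjugating enzyme. There were 6 with an unadjusted p under 0.05, against 37.9% of all genes. With each probe tested on its own, 4 genes of the class had a called probe. Of all 19088 probes tested in that way, 3046 were called higher and 2114 lower. For Ube2r2 it was below 0 in 6 of 6 replicates, at -0.34 ± 0.15 (SD, n = 6, limma adjusted p = 0.00792). The other Ube2r2 probe was missing in 2 replicates, and the means of the available probes ran from -1.13 to 0.24. Single probes of Ube2h, at 0.32, Ube2k, at 0.24, and Ube2z, at 0.24, were above 0 in all replicates, with limma adjusted p of 0.0101, 0.0239 and 0.0201. The probes of Ube2z, which works with the alternative activating enzyme Uba6, did not give the same value, since the other 2 averaged -0.03 and -0.09. Nor did those of Ube2h and Ube2k. The other Ube2h probe averaged -0.11, and the other Ube2k probe tested averaged -0.02. Ube2e2 had values in 3 replicates and Ube2j1 in 1, so neither was tested. Upstream of them, 4 genes for activating enzymes were tested. Nae1, part of the Nedd8 activating enzyme, rose with 0.44 ± 0.20, and Atg7, the activating enzyme of autophagy, fell with -0.24 ± 0.15 (SD, n = 6 each). None of 5 ubiquitin-like modifiers and none of 11 shuttling genes was called.

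Of 25 deubiquitinating enzymes tested in eye, 5 were higher, 1 lower and 19 not called, with a median of 0.11. The share called was 24%, against 26.8% of all genes. Usp2, a deubiquitinase whose RNA follows the circadian clock, had the lowest ratio of all members tested. Its replicates ran from -2.005 through a median of -1.05 to -0.64, and its mean was -1.11 ± 0.49 (SD, n = 6, limma adjusted p = 0.00165). It was below 0 on every eye array, with wide spread. Usp12, which acts with the scaffold proteins Wdr48 and Wdr20, lay between 0.36 and 0.63, at 0.50 ± 0.10 (SD, n = 6, limma adjusted p = 0.000568). Its 3 probes did not give the same value. They averaged 1.08, 0.44 and -0.03, and the replicates of the last lay on both sides of 0. Usp46, its close relative, was at -0.13 ± 0.17 and was not called.

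Usp16 and Usp21 both remove ubiquitin from histone H2A. Usp16 lay between 0.26 and 0.92 with a median of 0.39, at 0.46 ± 0.24 (SD, n = 6, limma adjusted p = 0.00668). Usp21 lay between 0.28 and 0.67 with a median of 0.43, at 0.46 ± 0.13 (SD, n = 6, limma adjusted p = 0.00142). All replicates of both were above 0. Usp47, an enzyme of base excision repair, lay between 0.13 and 0.40 and averaged 0.27 ± 0.11 (limma adjusted p = 0.0124). Usp19, which is anchored in the endoplasmic reticulum, was above 0 in 5 of 6 replicates and averaged 0.28 ± 0.20, just inside the threshold at a limma adjusted p of 0.0384. Usp38 was just outside, at 0.19 ± 0.12 with 0.0591.

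Usp18 removes the interferon-induced modifier Isg15 and is itself induced by interferon. It was not called in eye, and its 6 replicates ran from -0.42 through a median of 0.13 to 1.63. The mean of 0.27 ± 0.72 has a wide error, so neither a rise nor a fall was detectable. The remaining 18 enzymes tested and not called, Usp38 among them, lay between -0.16 for Usp11 and 0.19 for Usp38. Usp25 and Usp26 had 3 replicates and Usp9x had 4, so they were not tested. Among deubiquitinases outside the Usp family, 4 of 16 rose and 0 fell, against 15.9% of all genes called higher and 11% lower. The 4 were Zranb1 at 0.64 ± 0.17, Yod1 at 0.48 ± 0.14, Bap1 at 0.31 ± 0.15 and Uchl3 at 0.30 ± 0.21 (SD, n = 6 each).

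Ligases, the enzymes that choose the substrate, had 6 called higher and 1 lower of 24 tested in eye. Of all genes, 15.9% were called higher and 11% lower. Xiap, an inhibitor of caspases, stood out at 1.70 ± 0.18. Stub1, which tags misfolded clients of chaperones, was at 0.59 ± 0.13, and the cullins Cul5, Cul4a and Cul1 were at 0.57, 0.45 and 0.27. Siah1a was at 0.41 ± 0.10. Fbxo32, the atrophy ligase of muscle, fell with -1.75 ± 0.79. In the same eyes 9 of 10 skeletal muscle genes fell and 1 rose, and a link between these was not tested.

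The dye of the sighted RNA moved nearly all members in eye. With sighted RNA in Cy5, 75 of 82 members had a mean above 0. With sighted RNA in Cy3, 12 of 82 did. The median over all genes was 0.27 in Cy5 and -0.22 in Cy3, and over the members measured 0.28 and -0.23. All 14 called members kept their sign in Cy5 and 12 of 14 in Cy3. The exceptions were Usp21, at 1.01 in Cy5 and -0.096 in Cy3, and Usp47, at 0.58 and -0.038. Both Cy3 values stand above the Cy3 median of all genes, and with arrays centred on their median, in Cy3 alone, Usp21 was at 0.12 and Usp47 at 0.17. Psmb8 was at -0.78 in Cy5 and -1.32 in Cy3, and Psme1 at -0.42 and -0.94, so these fell in both. Psmb10, at -0.20 in Cy5, was called in Cy3 and not in Cy5, and none of the 8 higher genes was called in Cy3 alone. With arrays centred, an alternative chosen after seeing the data, Cy3 alone kept the calls of Psmc6, Psmd9, Usp12 and Usp19 and lost those of Psme3, Usp16, Usp21 and Usp47. Cy5 alone, centred, lost those of Psmc6, Psme3, Usp16 and Usp19. With every array taken on its own, the calls of Psme3, Usp16, Usp19, Usp21 and Usp47 were lost. With each array centred on its median, 16 members were called, 8 higher and 8 lower. Of all genes, 31.2% were then called, 16% higher and 15.2% lower. They held the same 14 genes, and Ube2l3 and Usp11 were added as lower.

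**Figure D3:**
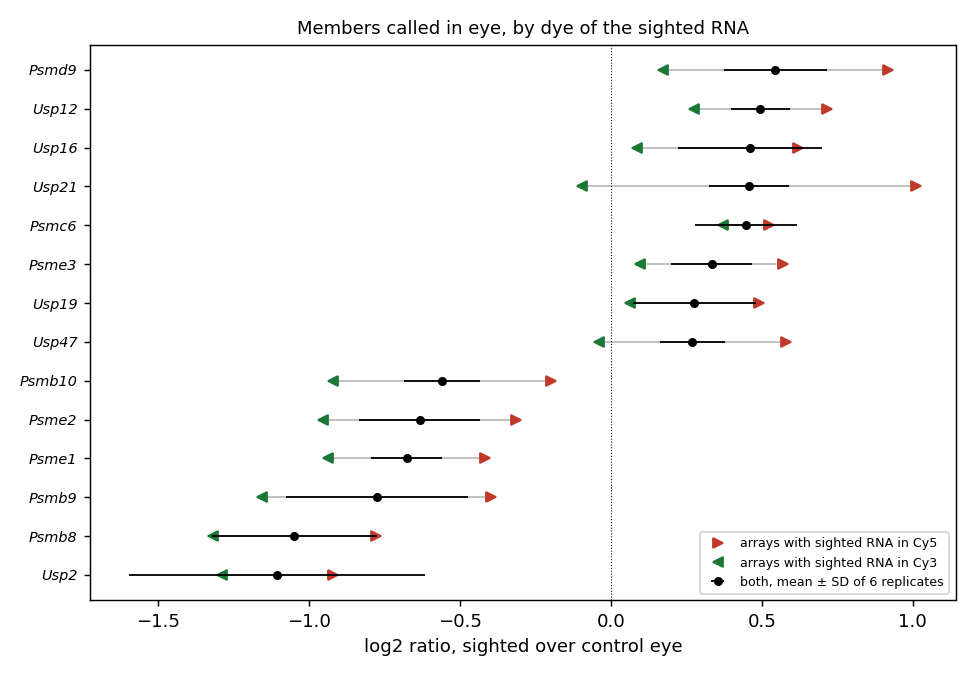
Log2 ratio of sighted over control eye (horizontal axis) of the 14 called members, on arrays with sighted RNA in Cy5 (red), in Cy3 (green) and over both (black, mean ± SD of 6 replicates). The 6 lower genes lie below 0 in both dyes, and the Cy3 points of Usp21 and Usp47 lie just below 0, above the Cy3 median of all genes of -0.22.

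In brain, no member was called as different between sighted and control mice. Of 86 members tested, 0 were called with limma and 4 had an unadjusted p under 0.05. Of all 16112 genes, 0.00621% were called, which is 1 gene, and 4.08% had an unadjusted p under 0.05. The median was -0.003 over members and -0.004 over all genes, and 96.5% of the members lay within 0.25 of 0. Psmb8 lay between -0.55 and 0.29, with a median of -0.01, and Psme1 between -0.18 and 0.04, with a median of -0.08. Psmb9 averaged 0.16 ± 0.25, Psmb10 -0.02 ± 0.17 and Psme2 -0.04 ± 0.13 (SD, n = 6 each). These inducible genes lay on both sides of 0 in brain.

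The 5 members with the smallest p in brain were Ube2e2, Psmd5, Psmd9, Ube2h and Ube2d1, all with a limma adjusted p of 0.959. Ube2e2, a conjugating enzyme that was not tested in eye, was below 0 in 5 of 5 replicates and averaged -0.24 ± 0.13. Psmd5, an assembly chaperone of the 19S base, was below 0 in 6 of 6, at -0.20 ± 0.14. Psmd9 was at -0.30 ± 0.27, on the other side of 0 from eye. Usp2 averaged 0.36 ± 0.50 over 5 replicates, from -0.17 to 1.05, and Usp18 -0.23 ± 0.42. Of the alternatives run in brain, arrays of a single dye gave calls, 4 of 86 members in Cy5 and 6 of 87 in Cy3. The others gave 0. Of all 16552 genes in Cy5, 691 were called higher and 45 lower, and of 16465 in Cy3, 95 higher and 1232 lower. Among the members, Psmb6 was called in both dyes with opposite sign, at 0.57 in Cy5 and -0.39 in Cy3.

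In heart, 69 members were tested and 0 were called with limma, as were 0% of all 12755 genes tested. There were 10 members with an unadjusted p under 0.05, and 8.17% of all genes. The constitutive core had ratios mostly above 0. Its 12 tested genes other than the inducible ones had a median of 0.21, and 7 of them were above 0 in every measured replicate, a pattern held by 12% of all genes. The median of all genes was -0.013. The medians of the 12 genes over replicates were 0.20, 0.17, 0.39 and 0.19. In eye the same class stood at -0.05 and in brain at -0.005. The 19S genes also lay mostly above 0 in heart. The median was 0.25 over 8 tested non-ATPase genes, 4 of them above 0 in every measured replicate. Over 5 ATPases it was 0.16, and 0 of these were above 0 throughout.

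Psmb3, a structural beta subunit, was at 0.94, 0.71 and 1.08 in 3 heart replicates, with the fourth missing. Psmb7, the trypsin-like subunit, was at 0.37, 0.42, 0.91 and 0.93. Psmb1 was at 0.27, 0.64, 0.41 and 0.60, and Psmb2 at 0.36, 0.22, 0.61 and 0.45. All of these values were above 0. The means were 0.91 ± 0.19 for Psmb3, 0.66 ± 0.30 for Psmb7, 0.48 ± 0.17 for Psmb1 and 0.41 ± 0.16 for Psmb2. Their limma adjusted p was 0.568 for each, and the smallest unadjusted p, that of Psmb3, was 0.0031. Psmb3 rests on uneven arrays, from -0.40 to 2.48 on the 3 measured Cy5 arrays and from -2.62 to 1.83 on the 4 Cy3 arrays. In Cy5 and in Cy3, Psmb7 was at 0.26 and 1.05, Psmb1 at 0.32 and 0.63, and Psmb2 at 0.23 and 0.59.

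Not all core genes of the heart were above 0 in that way. Psmb4 was at -0.06 ± 0.22, Psmb5 at 0.02 ± 0.28 and Psmb6 at 0.11 ± 0.19 (SD, n = 4 each). The alpha subunits Psma1, Psma2 and Psma6 were above 0 in all 4 replicates, at 0.21, 0.20 and 0.32. By dye, Psma1 was at -0.11 in Cy5 and 0.53 in Cy3, and Psma2 at -0.02 and 0.43. Psma6 was at 0.40 and 0.23. Psmd5 was the single 19S gene with an unadjusted p under 0.05, at 0.32, 0.47, 0.57 and 0.37, with a mean of 0.43 ± 0.11. Of its 2 probes, the one measured in all 4 replicates read -0.03 in replicate 2, so the 0.47 came with the other. On its own that fully measured probe averaged 0.31 ± 0.25, with an unadjusted limma p of 0.092. The inducible genes were uneven. Psmb8 was at 0.73, -0.09, 0.29 and -0.45 and Psmb10 at 0.48, -0.36, 0.02 and -0.43. Psmb9 was at 0.64, -3.09 and -0.01. Psme1 was above 0 in all 4 replicates, at 0.30 ± 0.22, and Psme2 was at 0.37 ± 0.58. Of the 18 heart members not tested, 9 were Usp genes.

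**Figure D4:**
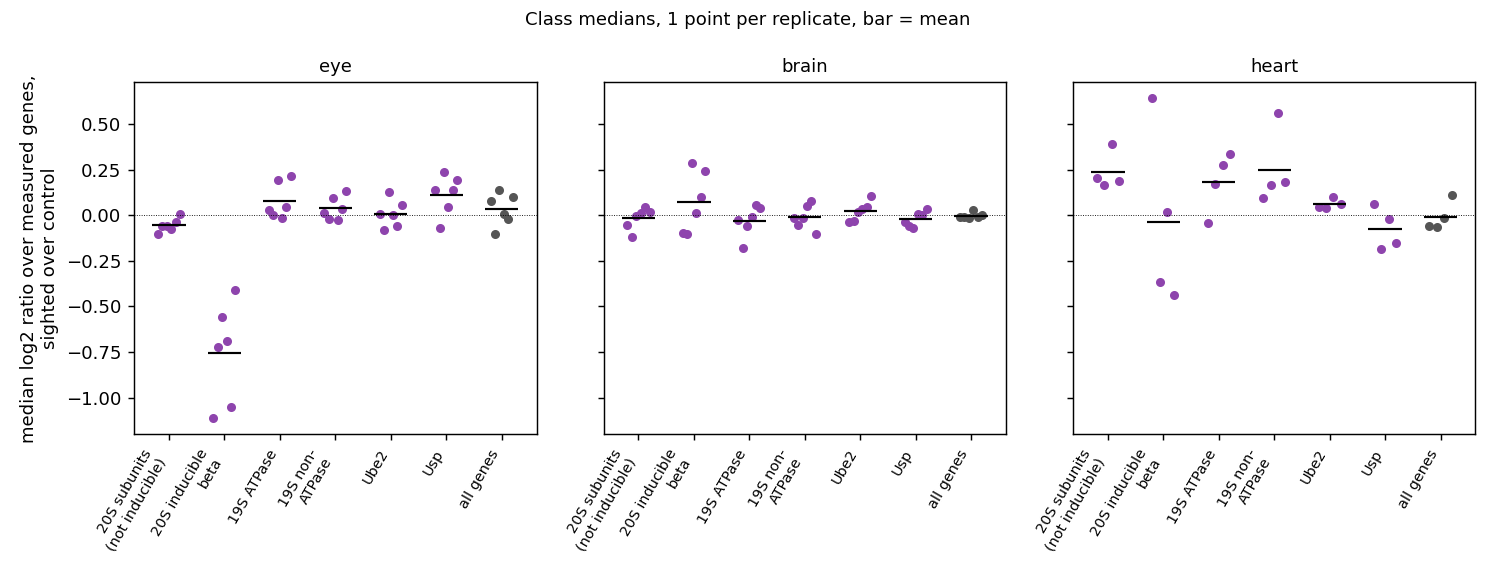
Median log2 ratio of sighted over control RNA (vertical axis) over the measured genes of a class in each replicate of eye, brain and heart, with bars for the mean. The inducible beta subunits lie between -1.11 and -0.41 in eye. The other 20S subunits lie between 0.17 and 0.39 in heart, where all genes lie between -0.06 and 0.11. The 19S non-ATPase genes lie between 0.09 and 0.56 there.

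The organs were then compared directly, with a t test on each organ's limma variance. The eye pool came from other control mice, so a difference between eye and another organ cannot be told apart from one between control mice. Eye minus brain was called for 13 of 82 members, 6 higher and 7 lower. Of all genes, 18.4% were called, 11.3% higher and 7.14% lower, so members were not called more often than other genes. The inducible genes were all among the lower. The difference was -1.02 (SE 0.15) for Psmb8, -0.93 (SE 0.14) for Psmb9, -0.54 (SE 0.097) for Psmb10, -0.61 (SE 0.084) for Psme1 and -0.59 (SE 0.10) for Psme2. Psmd9 was 0.85 higher in eye than in brain, with an adjusted p of 0.000222 in that t test, and Usp12 0.52 higher. Usp2 had the widest gap, -1.47 (SE 0.24), with a mean of -1.11 in eye and 0.36 in brain. Without eye replicate 4 the higher members numbered 3 in place of 6. With a single dye, 7 of the 13 calls were kept in Cy5 and 7 in Cy3. Psmb10 and Psme2 were among those lost in Cy5, and Usp2 and Psmd9 among those lost in Cy3.

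Eye minus heart was called for 5 of 69 members, 1 higher and 4 lower. Of all genes, 4.64% were called, 2.61% higher and 2.02% lower. Psme1 differed by -0.98, Psmb8 by -1.17, Psmb3 by -1.02, Usp2 by -1.30 and Usp12 by 0.70. For Psmb3 the means were -0.10 in eye and 0.91 in heart. These calls depended on single heart replicates. Without heart replicate 1 or replicate 2 there were 0, without heart replicate 3 there was 1 and without heart replicate 4 there were 2. Of all genes, 41 were called higher and 4 lower without heart replicate 1, and 72 and 37 without heart replicate 2. Without heart replicate 3 these were 127 and 56, and without heart replicate 4 they were 236 and 129. Brain minus heart was called for 0 of 69 members by the same t test, as for 0% of all genes. There, 10 members had an unadjusted p under 0.05, against 8.94% of all genes. Brain and heart share their control mice, which this test does not model.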

How the data were processed

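The authors deposited 1 log2 ratio, Cy5 over Cy3, per probe of each 2-colour cDNA array. RNA was turned into indirectly labelled cDNA, per the labels' protocols. How background was removed and ratios were normalized is not given in the sources used. Whether and how arrays were scaled stays unknown, arrays were not all centred, and the direction of the ratio is likely only. Dyes came from the labels, except that brain array 3, labelled Cy5 in both channels, was read as Cy5 for sighted RNA. The source of brain array 5 is named only as sighted.

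Repeated top values above 15, 4170 in all and 16.61 on each eye array, were treated as missing. Of 20794 probes, 12771 had 1 symbol, 0 several and 8023 none. The sign was turned on arrays whose sighted RNA was in Cy3. Each probe was averaged over consecutive arrays of opposite dye, both being needed, and then over the probes of a gene. A gene could miss 1 replicate.

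Each organ's mean was tested against 0 with limma 3.58.1 in R 4.3.3 over all genes, unnamed probes included, two-sided, with Benjamini-Hochberg adjustment at 0.05. Organ differences used a t test with each organ's own moderated variance and Satterthwaite degrees of freedom. Both fits were tested on simulated data. The number of arrays limits the precision. Samples were treated as unpaired between organs. The correlations of same-numbered replicates lay between -0.048 and 0.053. They cannot decide whether such replicates share an animal, since no labelled pair gives the value to be found within a mouse.

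Named genes were the inducible subunits, their counterparts, Psme1 to Psme3 and Usp18 whatever their value. In eye they were also up to 5 called genes of a class each way with 1 sign in every replicate, genes whose probes differed by over 1 and called genes that changed sign in a single dye. In brain, heart and each organ difference they were the 5 with the smallest p. Other members named as the ends of a range, as relatives of these genes or as all members of a subclass were chosen after their values were seen. The members and all gene lists were chosen with earlier results of these data known. Promoter windows came from a RefSeq table of GRCm38.p6.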

Additional observations from a re-analysis of the deposited data

Results flagged for a closer look

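In the 42 groups of values of named members that had 4 to 6 replicates, 2 held a replicate far from the others, and chance flags about 1 in 20 groups. Psme2 in eye had -1.01 in replicate 1, while the other replicates lay between -0.65 and -0.46. Usp16 in eye had 0.922 in replicate 2, while the others lay between 0.26 and 0.49. Of its 2 probes, the one measured in all 6 eye replicates read 0.345 in replicate 2, so the high value came with the other, which was missing in 2 replicates. Both genes stayed called without that replicate.

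A difference between organs in the ratio of sighted over control RNA passed the test for 13 members between eye and brain. The differences, eye minus brain, were -0.605 for Psme1, -1.02 for Psmb8, 0.518 for Usp12, -0.933 for Psmb9 and 0.845 for Psmd9. They were -1.47 for Usp2, -0.592 for Psme2, -0.535 for Psmb10, 0.479 for Usp16 and 0.364 for Psmc6. The 3 closest to the threshold were -0.30 for Ube2d1, 0.316 for Psmd5 and 0.31 for Usp21. Their adjusted p in the t test between organs was 0.027, 0.0278 and 0.0363. Neither Ube2d1 nor Psmd5 was called in an organ on its own.

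Eye minus heart passed for 5 members. The differences were -0.978 for Psme1, -1.17 for Psmb8, -1.02 for Psmb3, 0.702 for Usp12 and -1.30 for Usp2. Their adjusted p in the t test between organs lay between 0.0146 and 0.0466. The difference in Psmb3 follows a heart mean that was itself not called.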

How the results depend on the processing

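The 6 members called lower in eye were called lower without any single replicate, without replicates 1 and 2 or 1 and 5, with centred or scaled arrays, and in Cy3. Psmb10 was not called in Cy5 alone, at -0.20, and Usp2 was not tested without the genes of most spread. Of the 8 called higher, 0 were called in Cy3 alone, where Usp21 was at -0.096 and Usp47 at -0.038, and 4 with centred arrays in Cy3 alone. The eye members called numbered 19, 12 higher and 7 lower, with each probe on its own, where a Psme3ip1 probe was at 0.46 (limma adjusted p = 0.00134). They numbered 9 with every array on its own and 38 in Cy5 alone, against 14, and 13 to 16 with a replicate left out. With every array on its own, 1533 of all 16181 genes were called higher and 1121 lower. In Cy5 alone these were 6072 and 508 of 16301. With each probe on its own, 3046 of 19088 probes were called higher and 2114 lower. Usp19 was lost without each of replicates 1, 3, 4, 5 and 6. With centred arrays, an alternative chosen after seeing the data, Cy5 alone gave 10 and Cy3 alone 17. Of all genes, 2187 of 16301 were then called higher and 1826 lower in Cy5, and 1959 and 2019 of 16311 in Cy3. Brain members called numbered 4 in Cy5 alone and 6 in Cy3 alone, against 0, and 0 without any replicate. Of all brain genes, 691 of 16552 were called higher and 45 lower in Cy5, and 95 and 1232 of 16465 in Cy3. In Cy3 alone Psmb6 in brain was at -0.39. Heart members called numbered 1, Psmb3, without the genes of most spread, against 0, and 0 without any replicate. Without the genes of most spread, 28 of 10204 heart genes were called higher and 25 lower. Psmb3 in heart was at -0.19 in Cy3 alone. Eye minus brain members called numbered 9 to 13 with a replicate left out and 9 with the replicate block, against 13. They numbered 16 in Cy5 alone, 12 higher and 4 lower, and 13 in Cy3 alone, 1 higher and 12 lower, and each kept 7 of the 13. Eye minus heart members called numbered 15 with a shared spread, 3 with ceiling values kept, 0 in Cy5 alone and 0 with the replicate block, against 5. They ranged from 0 to 6 with a replicate left out. With a shared spread, 1101 of all 12547 genes were called higher and 814 lower for eye minus heart. With ceiling values kept these were 252 and 180 of 12781. In Cy5 alone they were 47 and 2 of 13551, and with the replicate block 139 and 64 of 12547. Brain minus heart gave 0 in every alternative run. Causes were not tested.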
